A study of Mus musculus with 6 samples.

Results

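The 10 genes described here, Adam7, Lcn5, Lcn8, Lcn9, Crisp1, Cst8, Cst11, Rnase9, Rnase10 and Ovch2, are known for secretory or surface proteins of the mouse epididymis, and they were followed in prostate RNA. Each was found by its symbol in a table of 34745 genes, and each symbol occurred once. The genes were selected on their known epididymal expression at a time when their values in this comparison had already been seen, so the difference of a member between the groups is given as a description, and a call that the fit over all genes makes for a member is only counted. Prostates of 3 male C57BL/6 mice that had carried a subcutaneous slow-release pellet of testosterone and oestradiol for 12 weeks, renewed each month (T + E2 group), were compared with those of 3 male C57BL/6 mice whose skin was only cut and closed at the same times (CON group). The mice were young adults at the start, and the pellet serves to model benign prostatic enlargement that obstructs the bladder outlet. The sources used here do not say which prostate lobes were taken, so each library is a mixture of cell types, in which fewer cells of a type and less RNA per cell cannot be told apart. CON replicate 2 and, less so, T + E2 replicate 2 stood apart by their summed reads of seminal vesicle genes, and results are also given without both.

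The epididymis is the duct in which sperm leaving the testis mature. Its principal cells secrete lipocalins, which carry retinoids and other lipids, together with cystatins that inhibit cysteine proteases, cysteine-rich secretory proteins that attach to sperm, and members of the RNase A family without ribonuclease activity. Their output depends on androgen and, in the first part of the duct, on factors that arrive from the testis in the lumen. The prostate is also androgen-dependent, but in the adult it is known for a different set of secreted proteins.

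Of the 10 members, Adam7 was read in every T + E2 mouse and in no CON mouse. The other 9 members were at or close to 0 in both groups. Adam7 encodes a membrane protein of the ADAM (a disintegrin and metalloprotease) family, which the epididymal epithelium passes to maturing sperm. It had 158, 81 and 139 reads in T + E2 replicates 1, 2 and 3, and 0 reads in each of the 3 CON mice. All 3 T + E2 mice thus lay above all 3 CON mice, and T + E2 replicate 2 was the lowest of its group. After TMM scaling this was 10.9, 4.93 and 9.27 counts per 1000000 (CPM) in the T + E2 mice, or 8.37 ± 3.09 CPM (SD, n = 3). Counts of 3 or fewer were taken as the detection limit, which in the CON libraries was worth at most 0.198 CPM. Measured against 3 counts in a CON library, the mean of Adam7 in treated mice was at least 42.2-fold higher. The exact 95% binomial (Clopper-Pearson) intervals of its unscaled reads per 1000000 were 8.88 to 12.2, 3.89 to 6.08 and 7.89 to 11.1 in the T + E2 mice, and 0 reads allowed up to 0.23 to 0.249 in the CON mice. These intervals cover counting error only, since reads without molecular identifiers are not independent molecules.

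**Figure D1:**
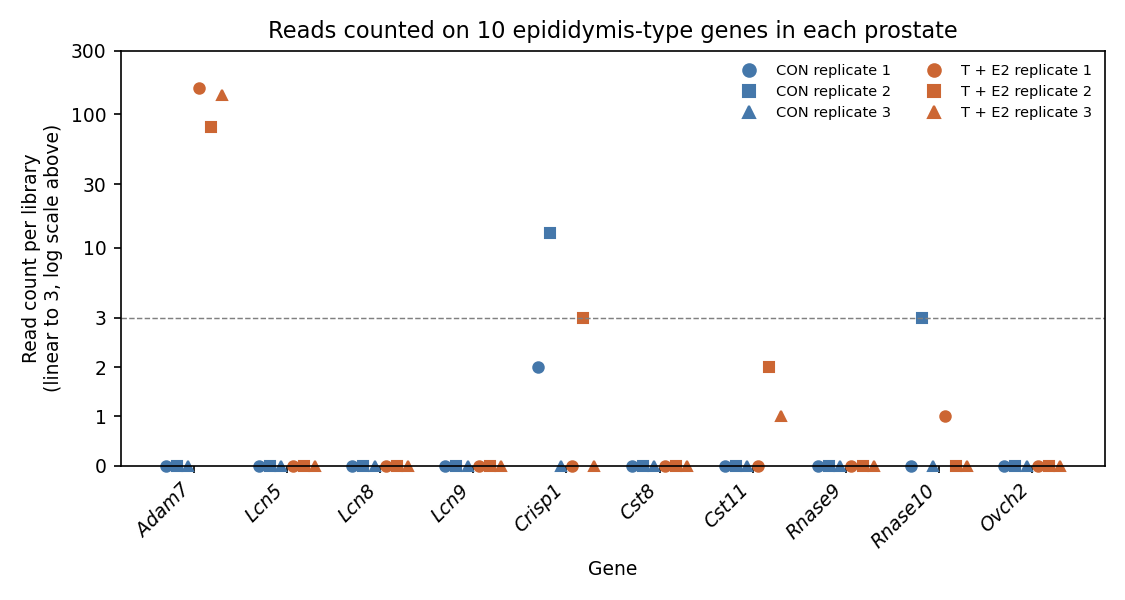
Reads counted on each of the 10 members in each prostate library, on an axis that is linear up to 3 reads and logarithmic above, with the group shown by colour and the replicate by symbol. Adam7 lies between 81 and 158 reads in the T + E2 mice and at 0 in the CON mice, and no other member exceeds 13 reads in any mouse (dashed line, 3 reads).

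Among genes with any reads, a set that includes genes with only a few, Adam7 lay near the middle. Per length, as the deposited FPKM, it was 2.33, 1.09 and 2.09 in T + E2 replicates 1, 2 and 3, which lay above 52.4%, 40.1% and 49.1% of the genes with any reads in these mice. Among all 34745 genes, 2 had 0 reads in all CON mice and at least 81 reads, the lowest T + E2 value of Adam7, in every T + E2 mouse. Adam7 was the protein-coding one, and the other was the antisense transcript Gm16150 with 508, 656 and 477 reads, which cannot be told apart from reads of an overlapping gene if strand was not used in counting. With the groups exchanged, 0 genes met these limits. The limit of 81 reads was taken from Adam7 itself, so its place among the 2 genes was fixed. Nothing is read from how few genes met it.

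Adam7 (ENSMUSG00000022056) lies on chromosome 14 of build GRCm38 from 68497336 to 68533689 in the deposited table, on the minus strand, and no other gene of the GENCODE M21 annotation overlaps it. Adam28, a metalloprotease of the same family, lies 72.3 kb away on the same strand. Of the sequences that follow, taken from GENCODE M21 transcripts, the pair shows how far the neighbours differ at the zinc-binding site of the protease domain. The zinc-binding motif of active ADAM proteases was found in the coding sequence of Adam28 and not in that of Adam7. Capitals mark the 5 codons at this site, with the build GRCm38 and the minus strand for both, at chr14:68516617-68516661 in Adam7 and chr14:68633170-68633214 in Adam28.
Adam7: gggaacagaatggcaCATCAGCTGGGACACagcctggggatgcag
Adam28: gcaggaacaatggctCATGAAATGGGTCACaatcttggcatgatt
The windows shared 27 of 45 bases, and 11 of 15 within the site. Counted from 1 at the 5′ end of the window, with the base of Adam7 first, the site differed by C19G, G21A, C22A and A27T. Over the aligned proteins 36.7% of 771 residues were identical. The longest stretch of the Adam7 transcript that matched another gene was 325 bases of Adam28 at 65.8% identity, and 0 genes matched over at least 50 bases at 80% identity or more.

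Adam28 was expressed in both groups and did not follow Adam7. Reads were 391, 361 and 393 in CON replicates 1, 2 and 3, against 332, 578 and 418 with T + E2, so that the groups overlapped. In CPM this was 24.7 ± 1.09 against 28.7 ± 6.14 (SD, n = 3 in each). The fitted log2 ratio of the T + E2 to the CON group was 0.21 ± 0.15 (SE), with an adjusted p = 0.361 in the quasi-likelihood test of edgeR over all tested genes. Adamdec1, a soluble relative of the same family that lies between them, had 52 to 92 reads per CON mouse and 80 to 128 per T + E2 mouse, with a log2 ratio of 0.44 ± 0.25 (SE, edgeR adjusted p = 0.245). These were the only protein-coding genes within 100 kb of Adam7, and neither passed the test.

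**Figure D2:**
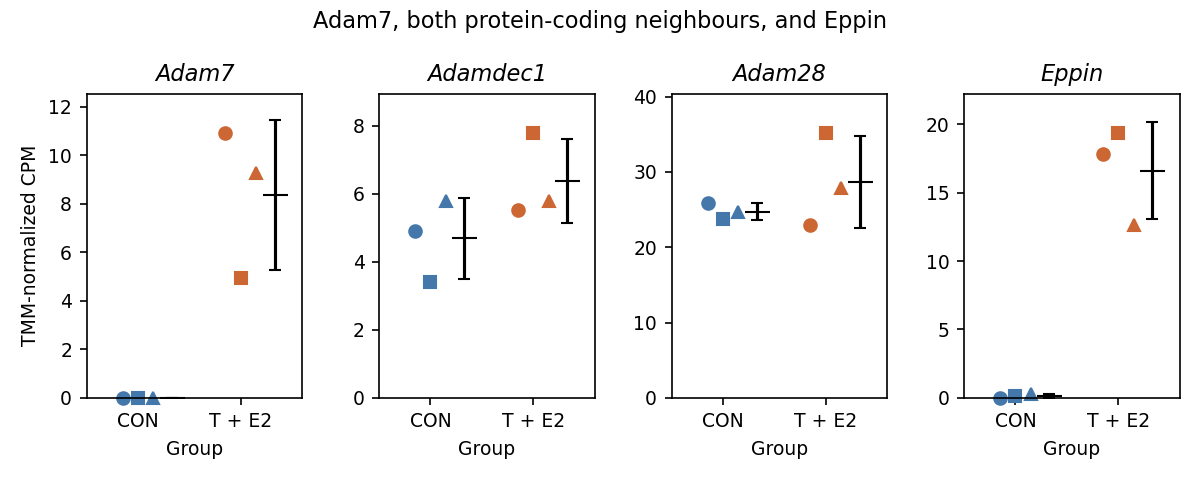
TMM-normalized CPM of Adam7, of its protein-coding neighbours Adamdec1 and Adam28, and of Eppin in the CON (blue) and T + E2 (orange) groups, with circles, squares and triangles for replicates 1, 2 and 3 and bars for the mean ± SD (n = 3). The 3 T + E2 values of Adam7 (4.93 to 10.9 CPM) and of Eppin (12.6 to 19.3 CPM) lie apart from CON values of at most 0.314 CPM, whereas both neighbours overlap between the groups.

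The lipocalins Lcn5, Lcn8 and Lcn9 had 0 reads in all 6 mice. Lcn5 is a retinoic acid-binding protein of the epididymal lumen, Lcn8 is a related lipocalin of the proximal epididymis, and Lcn9 is a further epididymal lipocalin. They lie in the lipocalin cluster of chromosome 2, Lcn8 from 25653120 to 25656217, Lcn5 from 25657952 to 25661977 and Lcn9 from 25823153 to 25825537, all on the plus strand of GRCm38. Lcn8 and Lcn5 are 1.73 kb apart. The 250 bases before each start are shown for these genes without reads, from RefSeq on build GRCm38.p6 and on the plus strand, with capitals for the motif AGAACA, the core of the androgen response element.
Lcn8, chr2:25652868-25653117: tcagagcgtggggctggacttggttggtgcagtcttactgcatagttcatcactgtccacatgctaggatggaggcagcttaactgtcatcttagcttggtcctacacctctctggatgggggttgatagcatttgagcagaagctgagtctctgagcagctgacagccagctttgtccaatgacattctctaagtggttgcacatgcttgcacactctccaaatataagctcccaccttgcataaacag
Lcn5, chr2:25657702-25657951: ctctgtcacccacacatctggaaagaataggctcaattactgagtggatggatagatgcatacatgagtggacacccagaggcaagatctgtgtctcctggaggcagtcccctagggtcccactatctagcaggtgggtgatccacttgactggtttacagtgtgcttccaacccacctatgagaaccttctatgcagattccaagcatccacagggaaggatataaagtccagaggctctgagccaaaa
Lcn9, chr2:25822903-25823152: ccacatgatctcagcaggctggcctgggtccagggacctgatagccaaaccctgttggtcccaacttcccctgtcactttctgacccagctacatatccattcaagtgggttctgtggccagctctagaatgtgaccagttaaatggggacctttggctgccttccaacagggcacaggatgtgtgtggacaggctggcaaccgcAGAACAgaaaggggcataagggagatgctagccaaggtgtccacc
The motif was searched on both strands. It occurred once before Lcn9, at 45 bases from the start, and not before Lcn8 or Lcn5. Of the 8 members in the promoter table, 2 held it, Lcn9 and Rnase10, against 18.2% of 27025 genes. Adam7 and Cst11 had no entry.

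The cystatins and RNases gave the same picture. Cst8, the cystatin-related epididymal and spermatogenic protein (chromosome 2, 148798785 to 148805595), had 0 reads in every mouse. Cst11, a second epididymal cystatin 27.3 kb away on the minus strand (148768609 to 148771497), had 2 reads in T + E2 replicate 2, 1 read in T + E2 replicate 3 and 0 in the other 4 mice. Rnase9 (chromosome 14, 51038459 to 51041869), a secreted RNase A family protein without enzyme activity, had 0 reads in every mouse. Rnase10 (51007751 to 51010758), 27.7 kb from it, had 3 reads in CON replicate 2, 1 read in T + E2 replicate 1 and 0 in the others. Ovch2 (ovochymase 2, chromosome 7, 107781544 to 107801208), a serine protease secreted by the proximal epididymis, had 0 reads in every mouse. The groups overlapped for each of these genes, and all were within the detection limit.

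Crisp1, a secreted protein that binds to sperm in the epididymis (chromosome 17, 40293758 to 40319207), was the member with the most reads after Adam7. It had 2, 13 and 0 reads in CON replicates 1, 2 and 3, and 0, 3 and 0 in T + E2 replicates 1, 2 and 3. The highest value of each group was thus in replicate 2, and the groups overlapped. The transcript of Crisp1 matches that of Crisp3 over 1436 aligned positions at 88.6% identity, so reads could be shared, but Crisp3 had 0 reads in all 6 mice.

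Together 6 of the 10 members had 0 reads in all 6 mice and 8 had at most 3 reads in every mouse. Of the 21556 genes of the table annotated as protein-coding in M21, 19.6% had 0 reads in all mice and 26.1% had at most 3. The 9 members other than Adam7 summed to 2, 16 and 0 reads in CON replicates 1, 2 and 3 and to 1, 5 and 1 reads with T + E2. Adam7 alone held 98.3%, 77.1% and 95% of the summed FPKM of the 10 members in T + E2 replicates 1, 2 and 3. Only Adam7 had enough reads for the test over 15580 genes. It was called higher, where a call needed an adjusted p below 0.05 and a log2 ratio beyond 1 in either direction, and 4.27% of all tested genes were called higher and 3.38% lower. Because the members were picked with these values known, nothing is read from that call.

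Other genes of the epididymis, listed from general knowledge but with earlier results of these data known, were next counted in the same mice. The list held 20 secretory genes, among them Lcn6, Lcn10 and Lcn12, Crisp4, Cst12, Gpx5, Rnase11, Rnase12 and Rnase13, Spag11a and Spag11b, Bsph1 and Bsph2. Of these, 10 had 0 reads in all mice, including Crisp4, Gpx5, Lcn10, Cst12 and Spag11a, and 15 had at most 3 in every mouse. Only Eppin and Adam28 could be tested. Eppin, a sperm-coating protease inhibitor of epididymis and testis, was called higher and 0 genes were called lower by edgeR, with 0 at an unadjusted p under 0.05 and 0 called lower by DESeq2. Of all tested genes, 4.27% were called higher and 3.38% lower. The other 18 genes summed to 3, 6 and 10 reads in CON replicates 1, 2 and 3 and to 7, 15 and 14 reads with T + E2, among 14816146 to 16555549 reads counted per library. With the 9 members added, these 27 genes, all with too few reads to test, made up 0.331 to 1.44 CPM in the CON group. In the T + E2 group they made up 0.553 to 1.22 CPM, so the groups overlapped for this remainder. The whole list of 20, with Eppin and Adam28, summed to 26.1, 24.2 and 25.6 CPM in CON replicates 1, 2 and 3. In T + E2 replicates 1, 2 and 3 that sum was 41.3, 55.4 and 41.4 CPM, without overlap.

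For Eppin, CON replicates 1, 2 and 3 gave 0, 2 and 5 reads, and T + E2 replicates 1, 2 and 3 gave 258, 318 and 189. The groups did not overlap, with 0.148 ± 0.158 CPM in the CON and 16.6 ± 3.54 CPM in the T + E2 group (SD, n = 3 in each). The log2 ratio was 6.71 ± 0.48 (SE, edgeR adjusted p = 8.92e-05). Eppin entered the test through its reads in the T + E2 group, and its list was made with earlier results known. Its p is therefore given as a description. Within the T + E2 group the order of the mice differed between the genes, since replicate 2 was the lowest for Adam7 and the highest for Eppin.

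**Figure D3:**
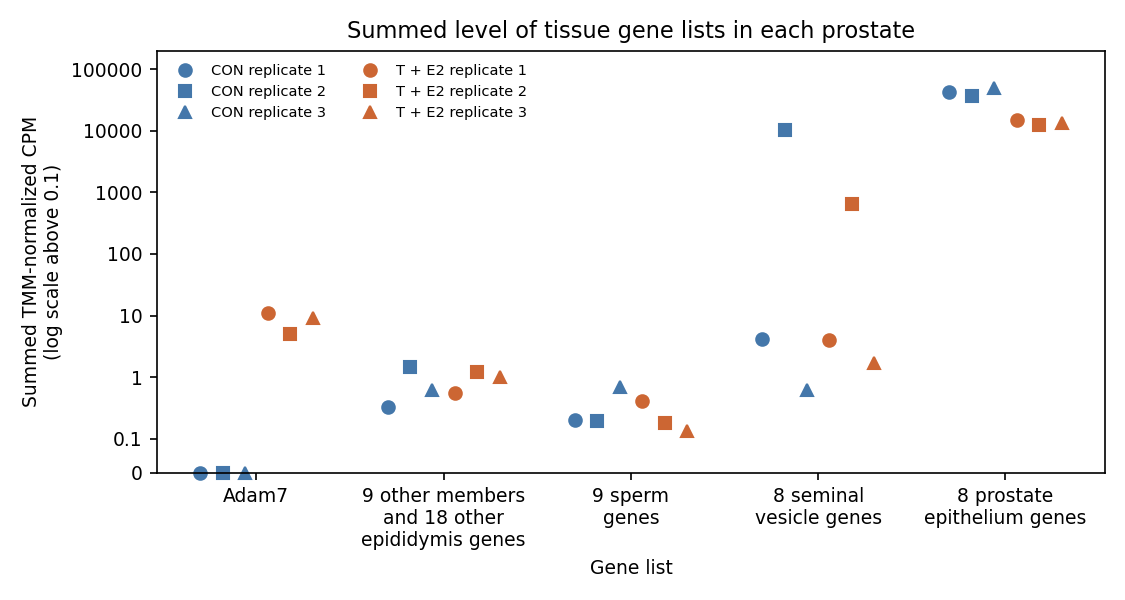
Summed TMM-normalized CPM in each prostate library of Adam7, of 27 epididymis genes (9 members and 18 others), of 9 sperm genes, of 8 seminal vesicle genes and of 8 prostate epithelium genes, on an axis that is logarithmic above 0.1 CPM. Adam7 separates the groups, and the 27 epididymis genes, which leave out Eppin and Adam28 and had too few reads to test, overlap. The seminal vesicle genes stand high in CON replicate 2 (10314 CPM) and T + E2 replicate 2 (642.3 CPM).

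Markers of the tissues that adjoin the prostate, or whose cells could be present, were counted beside the members. Of 9 sperm genes, 4 (Prm2, Tnp1, Odf1 and Akap4) had 0 reads in all mice, and the list summed to 0.197 to 0.691 CPM in the CON and 0.133 to 0.415 CPM in the T + E2 group. None of the 9 had enough reads to test. Of 6 genes of the narrow and clear cells, the proton-secreting cells of the epididymis, Atp6v1c2 alone could be tested. This subunit of the vacuolar proton pump fell by 1.45 on the log2 scale (SE 0.13, edgeR adjusted p = 0.00027), from 369.2 ± 44 to 135.4 ± 16.4 CPM (SD, n = 3 in each). The defining factor of these cells, Foxi1, had 0 to 6 reads in the CON and 4 to 10 in the T + E2 mice. Of 7 regulators of the epididymal epithelium, Ros1, a receptor kinase of the initial segment, had at most 1 read per mouse, and Rhox5, an androgen-regulated homeobox gene, had 0. Etv4, Etv5 and Lgr4 were tested, and edgeR and DESeq2 each called 0 of them, with 1 at an unadjusted p under 0.05. This was Lgr4, a receptor of R-spondins, with 56.5 ± 5.16 CPM in the CON and 80.7 ± 3.29 CPM in the T + E2 group. Its log2 ratio of 0.51 (edgeR adjusted p = 0.00906) was under the fold threshold. Etv4 and Etv5 lay in the other direction, with log2 ratios of -0.31 and -0.34 (edgeR adjusted p = 0.301 and 0.205).

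Transcripts of the seminal vesicle, which adjoins the prostate, were very unequal between the libraries. The 8 seminal vesicle genes took 1.06% of the reads of CON replicate 2 and 0.0638% of those of T + E2 replicate 2. In the other 4 libraries they summed to 0.628 to 4.1 CPM. The profile differed between CON replicate 2 and T + E2 replicate 2. Svs2 had 3371 and 7949 reads in them, in that order, whereas Svs4 had 69802 and 109, Svs5 76732 and 1799, and Svs1 525 and 4. No seminal vesicle gene was called by edgeR, which could test 3 of them, or by DESeq2. In edgeR 1 was lower at an unadjusted p under 0.05. Adam7 was 0 in CON replicate 2 and lowest in T + E2 replicate 2. Crisp1 was highest in these same libraries, at 13 and 3 reads. Pax2, a transcription factor of the genital ducts and kidney, had 60 reads in CON replicate 2 and at most 1 in every other mouse, and Pax8 had 4 reads there and 0 elsewhere. The part of seminal vesicle or genital duct RNA in the Crisp1 reads was not tested. When both libraries were left out, an alternative added after the data were seen, Eppin was still called higher. This call, too, is given only as a description. In the other 4 mice Adam7 had 158 and 139 reads with T + E2 and 0 reads in the CON group.

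The prostate label was checked on 8 genes of prostate epithelium. Hoxb13, a transcription factor of prostate identity, had 460.7 ± 9.51 CPM in the CON group and 415.2 ± 23.1 CPM in the T + E2 group (SD, n = 3 in each), and was not called. The secretory genes Pbsn and Tgm4 were called lower, with log2 ratios of -3.29 and -2.91, and Msmb was called higher, with 1.10. Of all tested genes, 3.38% were called lower and 4.27% higher. The prostate epithelium list was thus not stable between the groups as a whole.

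The relatives of the members were read from the same fit. Of 57 other genes named Adam, Lcn, Cst, Rnase, Crisp or Ovch with a number, 20 had 0 reads in all mice and 21 could be tested. Rnase1, the pancreatic-type secreted ribonuclease, was the 1 gene called higher, from 1018 ± 95.2 to 4014 ± 519.3 CPM (SD, n = 3 in each), a log2 ratio of 1.98 ± 0.13 (SE, edgeR adjusted p = 6.58e-05). By edgeR and by DESeq2 0 relatives were called lower, with 4 higher and 3 lower at an unadjusted p under 0.05 in edgeR. The share of all tested genes at that unadjusted limit is not given here, so nothing is read from these unadjusted counts. Over all tested genes, 4.27% were called higher, so 1 of 21 was near that background. The median log2 ratio of the 21 was 0.18, against -0.0021 over all tested genes. Cst3, the widely expressed cystatin C of the same cluster as Cst8 and Cst11, had 397.3 ± 34.1 and 601.5 ± 47.7 CPM in the CON and T + E2 groups, with a log2 ratio of 0.60 (edgeR adjusted p = 0.00736) that did not reach the fold threshold. Lcn2, an inflammation-induced lipocalin, gave 172 to 806 reads per CON mouse and 509 to 4020 per T + E2 mouse, with the highest in T + E2 replicate 2, and was not called (edgeR adjusted p = 0.146).

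Position in the genome was examined in the same way. Of 49 protein-coding genes within 100 kb of a member, 24 could be tested, and 1 was called higher and 3 lower, where 4.27% and 3.38% of all tested genes were called higher and lower. Beside Lcn8 and Lcn5 these were Fcna, a ficolin of macrophages, with a log2 ratio of 1.02 ± 0.18 (SE, edgeR adjusted p = 0.00731), and Gm996 with -1.16 ± 0.25 (SE, edgeR adjusted p = 0.0153). Both lost their call under several other settings, and neither was called without the pair of libraries with the most seminal vesicle reads. Beside Rnase9 and Rnase10 they were the olfactory receptor gene Olfr750, with -2.58 ± 0.41 (SE, edgeR adjusted p = 0.00399), and Ang (angiogenin), with -1.37 ± 0.12 (SE, edgeR adjusted p = 0.00027). Ang gave 334 to 433 reads per CON mouse and 136 to 154 per T + E2 mouse, without overlap. The table gives Ang and Rnase4 the same start, 51091077, so reads could be divided between them, and Rnase4 was not called (log2 ratio -0.20, edgeR adjusted p = 0.389). The remaining cystatins between Cst11 and Cst3, namely Cst12, Cst13 and Cst9, and the lipocalins Lcn10 and Lcn3 had 0 reads in all mice. Other genes of the lipocalin cluster had a few reads, too few to test. Lcn6 and Lcn11 had at most 4 reads per mouse. Obp2a had 0, 3 and 2 reads in CON replicates 1, 2 and 3 and 3, 8 and 7 in T + E2 replicates 1, 2 and 3.

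The tested protein-coding genes whose log2 CPM over the 6 libraries was most like that of Adam7 were Cds1, Defb29, Scn4a, Prom2 and Neu3, with Pearson correlations of 0.9984 to 0.9994. These correlations describe 6 libraries in 2 groups, so any gene that differs between the groups scores high, and 1184 of 14224 genes exceeded 0.9. Of the 5, Defb29, a beta-defensin, was also at 0 in all CON mice, with 55, 32 and 60 reads in T + E2 replicates 1, 2 and 3.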

How the data were processed

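The authors deposited 1 table that gives, for each of 34745 genes and 6 mice, whole-number read counts without normalization, and FPKM values made by the authors from those counts, gene length and library total. The submitters' processing notes name TopHat, Bowtie2 and HTSeq. Their settings, the annotation and the use of strand are not given in the sources used here. Coordinates in the table matched GENCODE M21 on GRCm38 for 9 of the 10 members, and the end of Adam7 differed. The study's methods name DESeq2. The 12 value columns were matched to mice by the names in the sample titles.

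Counts were analysed with edgeR 4.0.16 in R 4.3.3 (filterByExpr with minimum count 10 and total 15, TMM scaling, quasi-likelihood test, Benjamini-Hochberg adjustment over 15580 genes). A gene was called at an adjusted p below 0.05 with a log2 ratio beyond 1 in either direction. Counts at an unadjusted p under 0.05 are given without a share over all tested genes, and nothing is read from them. The standard error (SE) of a log2 ratio was taken as its size over the square root of F. The code was tested on simulated data. Transcripts were compared with BLAST+ 2.17.0+ and proteins aligned with Biopython 1.88. Library totals ran from 14816146 to 16555549 counts. The members and lists were chosen with earlier results of these data known. Named were all members, up to 4 called genes per list, markers at 0, and the 5 genes most correlated with Adam7. Further genes were chosen after their values were seen (Gm16150, Adamdec1, Lgr4, Etv4, Etv5, Cst3, Lcn2, Lcn6, Lcn11, Obp2a, Rnase4, Foxi1, Pax8 and Pax2). The mice are separate animals, and 3 against 3 cannot give an exact permutation p below 0.1. Alternatives were DESeq2 1.42.0, other scalings, no filter, limma 3.58.1 on log2(FPKM + 0.1) and log2(FPKM + 1), a replicate block, other distances and left-out mice. Certain genes of the prostate list are not reported here.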

Additional observations from a re-analysis of the deposited data

How the results depend on the processing

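The count of other epididymis secretory genes called (1 higher, 0 lower) was the same under all 14 other fits. That 1 gene was Eppin, which entered the test through its T + E2 reads and came from a list made with earlier results known. The call of Adam7 was fixed by the choice of members. Neither unchanged call is a sign of stability. The lower bound for Adam7, 5.40 on the log2 scale, ranged from 5.16 to 5.67 when single mice were left out and was 5.35 with total-count scaling. Its share of the members' summed FPKM in the T + E2 group averaged 90.1%, and 97.6% of summed reads. The number of neighbours called higher (1) fell to 0 with total-count scaling, with limma on either FPKM scale and without both libraries with the most seminal vesicle reads, was 2 within 250 kb, and ranged from 0 to 1 with single mice left out, at 0 without CON replicate 2, T + E2 replicate 2 or T + E2 replicate 3. Fcna then had log2 ratios of 0.77 to 0.99, under the threshold of 1. The prostate genes called higher (1) ranged from 0 to 1 with single mice left out, at 0 without CON replicate 1, where Msmb had a log2 ratio of 0.99. Over all genes, 665 calls higher and 526 lower became 365 and 196 with limma on log2(FPKM + 1) and 511 and 298 without both libraries with the most seminal vesicle reads. Why these counts moved was not tested.

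Across the tested genes, deviations of mice with equal replicate numbers correlated at -0.052, 0.028 and 0.046. Those of mice with unequal numbers correlated at -0.182 to 0.137. No pairing by replicate number was seen across all these genes, and pairing or a shared batch in some of them was not tested. With the replicate number as a block, 598 genes were called higher and 415 lower, and 1 seminal vesicle gene was called lower instead of 0. Depth limits members other than Adam7 to statements about at most a few reads per library.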
